A study of Mus musculus with 6 samples.

Results

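The complement system was examined in the injured mouse kidney through 9 genes, C1qa, C1qb, C1qc, C4b, C3, Cfb, Cd55, C3ar1 and C5ar1, taken by their symbols from the 21367 genes of the deposited table. Each of the 9 symbols matched 1 row. Kidneys of 3 Ptpn6+/mev mice were compared with kidneys of 3 wild-type littermates, all 7 weeks old and on a C57BL/6 background. Ptpn6+/mev mice, which the labels also call SHP1 knockdown, carry 1 copy of the viable motheaten allele, a splice-site mutation of Ptpn6 that is present in every cell of the animal. Ptpn6 encodes SHP-1, a tyrosine phosphatase of blood cells that restrains immune receptor signalling. Every mouse of both groups had lost its right kidney, and blood flow to its left kidney had been stopped with a clamp for 34 min and restored 24 h before that kidney was taken. All 6 kidneys were therefore injured, so a complement gene could be compared between genotypes after renal ischemia-reperfusion injury (IRI), not between injured and uninjured kidney. The injury was not equal, since the paper reports higher serum creatinine and urea nitrogen and worse tubular damage in the Ptpn6+/mev mice. It also reports more TUNEL staining and more reactive oxygen species in them. Genotype and severity of injury therefore cannot be told apart in this comparison. Poly-A RNA of the whole left kidney gave 1 library per mouse. Where 3 values of a group are listed below, they stand in the order of its replicates 1, 2 and 3.

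Complement is a cascade of blood and tissue proteins. The classical pathway starts when C1q, built from the chains C1qa, C1qb and C1qc, binds its target and its partner proteases cleave C4 and C2; the lectin pathway reaches the same step through mannose-binding lectins, and the alternative pathway amplifies itself through factor B, the product of Cfb. All routes meet at C3, whose cleavage gives the surface tag C3b and the small peptide C3a, and further cleavage of C5 gives C5a. C3a and C5a act on the receptors C3ar1 and C5ar1, while Cd55, the decay-accelerating factor, takes apart the enzymes that cleave C3 on the surface of host cells. Most circulating complement is made in the liver, C1q is made largely by macrophages and dendritic cells, and injured tubular epithelium is a known local source of C3 and factor B.

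Promoter sequences are shown for C3, the member with the larger fold difference of the 2 whose groups did not overlap, and for C1qb and C1qc, neighbours on chromosome 4 that moved together across the 6 libraries. RefSeq promoters of the assembly GRCm38.p6 matched 6 of the 9 members. Each run below holds 250 bases before and 50 bases from the annotated start, 5′ to 3′ on the minus strand, which is the strand of the gene. The C3 promoter lies at chr17:57228087-57228386, that of C1qb at chr4:136886151-136886450 and that of C1qc at chr4:136892865-136893164. Capitals mark matches to motifs searched on both strands.
C3: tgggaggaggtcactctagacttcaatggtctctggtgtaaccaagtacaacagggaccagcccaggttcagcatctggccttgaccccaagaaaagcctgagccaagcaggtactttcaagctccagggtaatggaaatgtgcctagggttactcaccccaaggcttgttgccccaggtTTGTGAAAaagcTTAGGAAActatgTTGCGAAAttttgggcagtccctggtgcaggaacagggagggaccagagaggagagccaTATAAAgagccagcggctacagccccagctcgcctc
C1qb: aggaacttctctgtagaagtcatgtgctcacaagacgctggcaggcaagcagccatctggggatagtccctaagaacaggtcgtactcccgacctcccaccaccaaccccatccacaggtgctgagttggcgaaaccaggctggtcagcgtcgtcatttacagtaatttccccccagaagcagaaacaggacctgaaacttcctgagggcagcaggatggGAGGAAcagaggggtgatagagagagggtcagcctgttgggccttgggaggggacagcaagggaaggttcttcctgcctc
C1qc: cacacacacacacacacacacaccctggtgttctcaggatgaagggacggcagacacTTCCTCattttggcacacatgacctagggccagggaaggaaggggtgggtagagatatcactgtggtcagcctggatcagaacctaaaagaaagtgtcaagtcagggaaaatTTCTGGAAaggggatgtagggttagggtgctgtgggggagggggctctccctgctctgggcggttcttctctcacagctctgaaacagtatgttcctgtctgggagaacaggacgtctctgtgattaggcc

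The letters searched were TTNNGNAA, a core bound by C/EBP proteins, GAGGAA, a core bound by ETS proteins such as PU.1, TGANTCA, bound by AP-1, and TATAAA. In the C3 promoter TTNNGNAA matched at -70, -58 and -45, the last on both strands, counted from the start, and TATAAA began at position 15. The C1qb promoter held GAGGAA at -30. The C1qc promoter held GAGGAA at -193 on the other strand and TTNNGNAA at -81. Over the 6 promoters, 3 held TTNNGNAA, against 40.7% of the 32851 mouse promoters of the same length, and 2 held GAGGAA, against 28.3%. TATAAA was in 2 of the 6, against 13.6%, and TGANTCA in 1, that of C3ar1, against 7.81%. A match describes the letters and does not show that a factor bound there.

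Total estimated counts lay between 10271590 and 12361745 per library. Ptpn6 itself was at 11.85 to 14.7 FPKM (fragments corrected for transcript length and library size) in Ptpn6+/mev kidneys and at 10.9 to 17.5 FPKM in wild-type kidneys, with a log2 fold change of -0.19 (adjusted p = 0.715, edgeR quasi-likelihood test); a count per gene does not read the splice change. Wild-type replicate 2 stood apart from the other libraries. Its normalization factor was 0.929 against 0.994 to 1.03, and it differed from the other wild-type libraries by a chi-square per degree of freedom of 29.2 and 43.3, against 7.88 between those and 6.27 to 10.4 among the Ptpn6+/mev libraries. Results that rest on this library are therefore also given without it.

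By mean FPKM over the 6 libraries, which is scaled to transcript length, Cfb stood highest at 87.6. C3 followed at 30.6, C1qb at 27.5, C1qa at 26.0 and C1qc at 16.6, then C5ar1 at 7.83, Cd55 at 1.28, C3ar1 at 1.03 and C4b at 0.0367. Cfb was above C3 in all 6 libraries and their ranges did not meet. C3 and C1qb were not separated, since C3 was the higher in 3 of the 6 libraries. The order C1qb, C1qa, C1qc held inside every library, although the ranges of these neighbours overlapped. C5ar1 was above Cd55 in 5 libraries, and Cd55 was above C3ar1 in only 2, so these last levels had no fixed order. C4b was below all others in every library.

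**Figure D1:**
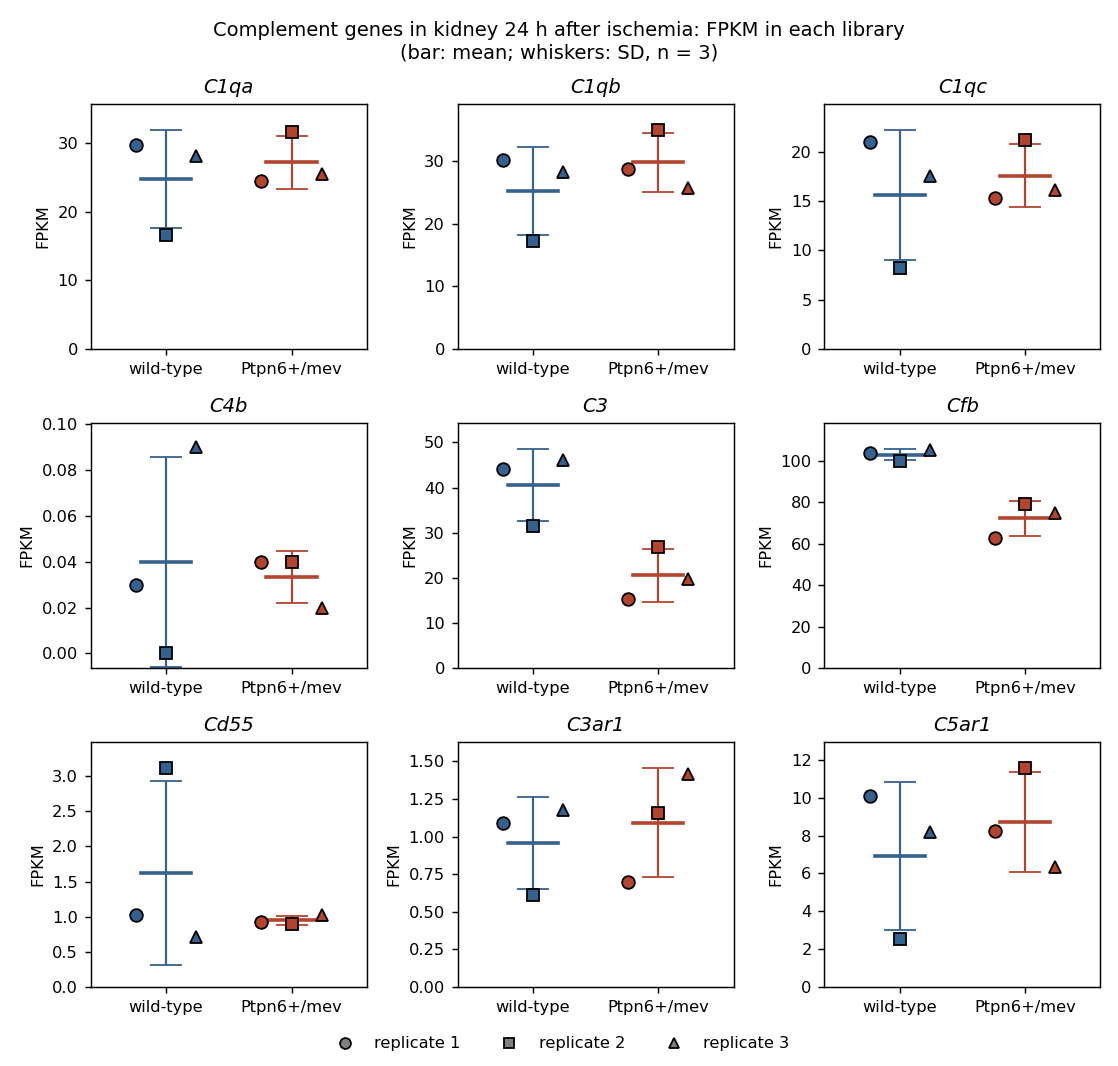
FPKM (linear axis from 0, apart from the C4b panel, which extends just below 0 to hold its whisker) of each of the 9 complement genes in 3 wild-type and 3 Ptpn6+/mev kidneys; points are libraries, horizontal bars means and whiskers SD. For C3 and Cfb all Ptpn6+/mev points lie below all wild-type points, and in the C1q and C5ar1 panels wild-type replicate 2 (blue square) is the lowest point.

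C3, the component on which all pathways converge, was lower in Ptpn6+/mev kidneys. It was measured at 15.2, 26.7 and 19.7 FPKM in the Ptpn6+/mev kidneys and at 44.1, 31.4 and 46.2 FPKM in the wild-type kidneys. The groups did not overlap, but the highest Ptpn6+/mev kidney and the lowest wild-type kidney, both replicate 2, came close to each other. The means were 20.5 ± 5.80 (SD, n = 3) and 40.6 ± 7.98 (SD, n = 3), a ratio of 1.98. The log2 fold change from the counts, which ran from 776 to 2941 per library, was -1.06 with a standard error of 0.22. It missed the threshold of 0.05 in edgeR's quasi-likelihood test (adjusted p = 0.104), where C3 stood 153rd of 13036 genes by p-value. The same difference passed in DESeq2 (adjusted p = 3.51e-04) and in edgeR's exact test (adjusted p = 8.15e-04), and, once wild-type replicate 2 was left out, in the quasi-likelihood test too (log2 fold change -1.19, adjusted p = 0.0229). Without other libraries its log2 fold change lay between -1.31 and -0.87, and the adjusted p reached 0.464 without Ptpn6+/mev replicate 3. In whole-kidney RNA, fewer cells of a type and less RNA per cell cannot be told apart. C3 (ENSMUSG00000024164) lies on the minus strand at chr17:57203970-57228136 of GRCm38, is protein coding, and shared no stretch of 75 bases with another annotated gene.

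Cfb, which encodes the protease of the alternative pathway convertase, was the most abundant member and showed the same order of groups. The Ptpn6+/mev kidneys held 62.8, 79.2 and 74.9 FPKM, and the wild-type kidneys held 104, 99.9 and 105 FPKM. The wild-type kidneys were close together, and every Ptpn6+/mev kidney was below the lowest of them. Means were 72.3 ± 8.47 (SD, n = 3) and 103 ± 2.72 (SD, n = 3). Its log2 fold change of -0.57 had a standard error of 0.11 (adjusted p = 0.0918, edgeR quasi-likelihood test), which placed Cfb 99th of the 13036 genes by p-value. DESeq2 (adjusted p = 7.72e-04), edgeR's exact test (adjusted p = 0.00409) and the fit without wild-type replicate 2 (log2 fold change -0.57, adjusted p = 0.0344) put it past the threshold. Leaving out the others in turn gave -0.64 to -0.47, with an adjusted p of up to 0.394 without Ptpn6+/mev replicate 3. Cfb took 3.63 ± 0.603 times the FPKM of C3 in Ptpn6+/mev kidneys and 2.60 ± 0.499 times in wild-type kidneys (SD, n = 3), and these ratios overlapped between groups. Cfb (ENSMUSG00000090231) lies at chr17:34856374-34862518 on the minus strand. Of its 75-base stretches, 81.2% also occur in the read-through transcript Gm20547, which was listed at 0 in every library, so how the deposited counts divided these reads is uncertain.

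The C1q chains, whose proteins join into 1 recognition molecule, did not differ detectably between the genotypes and varied together from mouse to mouse. C1qa was at 24.4, 31.6 and 25.6 FPKM in the Ptpn6+/mev kidneys and at 29.7, 16.7 and 28.1 FPKM in the wild-type kidneys. C1qb was at 28.7, 34.9 and 25.7 FPKM against 30.1, 17.2 and 28.2 FPKM. C1qc was at 15.3, 21.2 and 16.1 FPKM against 21.0, 8.23 and 17.6 FPKM. In FPKM all 3 genes were highest in Ptpn6+/mev replicate 2 and lowest in wild-type replicate 2, although in CPM C1qc was slightly higher in wild-type replicate 1 (25.5) than in Ptpn6+/mev replicate 2 (25.1), and the groups overlapped for each of them. The group means of C1qa were 27.2 ± 3.87 and 24.8 ± 7.11 FPKM (SD, n = 3 each), with a log2 fold change of 0.07 (standard error 0.20, adjusted p = 0.932, edgeR quasi-likelihood test). For C1qb they were 29.8 ± 4.70 and 25.2 ± 6.97, with 0.18 (standard error 0.20, adjusted p = 0.790, edgeR), and for C1qc 17.5 ± 3.19 and 15.6 ± 6.60, with 0.11 (standard error 0.30, adjusted p = 0.924, edgeR). Without wild-type replicate 2 the sign turned for all 3, to -0.13, -0.0098 and -0.18. These genes form a cluster of 18675 bases on the minus strand at chr4:136880129-136898803, with C1qb at chr4:136880129-136886187, C1qc at chr4:136889804-136893065 and C1qa at chr4:136895917-136898803, and none shared 75-base stretches with another gene. Inside a library the FPKM of C1qb was 1.00 to 1.17 times that of C1qa, while C1qc ranged from 0.494 times in wild-type replicate 2 to 0.707 times in wild-type replicate 1.

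The macrophage markers, read beside C1q, had a summed level of 153 to 275 FPKM in Ptpn6+/mev kidneys and 144 to 237 FPKM in wild-type kidneys. None of the 12 reached an unadjusted p under 0.05 in edgeR's quasi-likelihood test, and 7 of them were lowest in wild-type replicate 2. The summed FPKM of the C1q genes equalled 44.8%, 34.9% and 24.5% of this marker sum in the Ptpn6+/mev kidneys. In the wild-type kidneys it equalled 34.0%, 29.2% and 37.1%. The shares averaged 34.7% ± 10.2 and 33.5% ± 3.99 (SD, n = 3) and overlapped. Wild-type replicate 2 had both the lowest C1q sum, 42.1 FPKM, and the lowest macrophage marker sum, 144 FPKM. Ptpn6+/mev replicate 1 had nearly as low a marker sum, 153 FPKM, with a C1q sum of 68.5 FPKM, and the marker Cd14 was highest in wild-type replicate 2 at 60.2 FPKM. Lyz2 was a large part of the marker sum, at 72.25, 145 and 166 FPKM against 130, 49.3 and 96.3 FPKM. Without Lyz2 the marker sum was lowest in Ptpn6+/mev replicate 1. The part of macrophage content in the C1q values was not tested.

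C4b, the C4 gene of the classical and lectin pathways, was close to undetected. Its counts were 2, 2 and 1 in the Ptpn6+/mev kidneys and 2, 0 and 6 in the wild-type kidneys, which is 13 reads in all and at most 0.09 FPKM. The count of 0 allows up to 3 counts, and 5 of the 6 libraries held 2 counts or fewer, so only a very large difference between the genotypes could have been detected at this depth. In the fit without a filter the difference had a standard error of 1.04 on the log2 scale (adjusted p = 0.897, edgeR). C4b did not pass the filter on low counts, and it is the 1 member outside the 8 tested with the others. C4b (ENSMUSG00000073418) lies at chr17:34728380-34743882, and 23.5% of its 75-base stretches also occur in the neighbouring copy C4a, which was not analysed here, so reads common to both may have been counted elsewhere.

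Cd55, which protects host cells from complement on their own surface, was low and depended on 1 kidney. It was at 0.93, 0.89 and 1.02 FPKM in the Ptpn6+/mev kidneys and at 1.03, 3.12 and 0.71 FPKM in the wild-type kidneys. Wild-type replicate 2 held 87 counts, whereas the other 5 libraries held 20 to 28, and without it the groups lay within the same range. The means were 0.947 ± 0.0666 and 1.62 ± 1.31 FPKM (SD, n = 3 each). The log2 fold change of -0.92 (standard error 0.59, adjusted p = 0.606, edgeR quasi-likelihood test) turned to 0.10 when that library was left out. Cd55 (ENSMUSG00000026399) lies at chr1:130439027-130462744. It overlaps Gm16083 on the opposite strand and shares 10.6% of its 75-base stretches with Gm16083 and Cd55b, and the library kit does not keep the strand, so reads from those shared stretches cannot be assigned to 1 gene.

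The anaphylatoxin receptors showed no detectable difference between the genotypes. C5ar1, the receptor for C5a on neutrophils and macrophages, was at 8.24, 11.6 and 6.36 FPKM in the Ptpn6+/mev kidneys and at 10.1, 2.55 and 8.17 FPKM in the wild-type kidneys. The lowest of the 6 was again wild-type replicate 2, and the remaining wild-type values lay inside the Ptpn6+/mev range. Means were 8.73 ± 2.64 and 6.93 ± 3.91 FPKM (SD, n = 3 each), and the log2 fold change of 0.35 (standard error 0.44, adjusted p = 0.821, edgeR quasi-likelihood test) became -0.055 without that library. For C5ar1 the FPKM value per CPM (a count scaled to library size and not to length) varied 1.63-fold between libraries, so the deposited length correction differed from mouse to mouse. On the CPM scale, with TMM-normalized library sizes, it was at 11.5, 18.8 and 14.4 against 16.0, 4.12 and 14.9, which moved the lowest Ptpn6+/mev value from replicate 3 to replicate 1. C5ar1 (ENSMUSG00000049130) lies at chr7:16246743-16259540.

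C3ar1, the receptor for C3a, was expressed at a far lower level than C5ar1, at 0.7, 1.16 and 1.42 FPKM in the Ptpn6+/mev kidneys and at 1.09, 0.61 and 1.18 FPKM in the wild-type kidneys. Ptpn6+/mev replicate 1 and wild-type replicate 2 were low, and the remaining 4 kidneys lay close together. The means of 1.09 ± 0.365 and 0.960 ± 0.306 FPKM (SD, n = 3 each) differed by less than the spread between mice (log2 fold change 0.12, standard error 0.34, adjusted p = 0.928, edgeR quasi-likelihood test). The log2 fold change turned to -0.096 without wild-type replicate 2 and to -0.11 without Ptpn6+/mev replicate 3. C5ar1 had 4.18 to 11.8 times the FPKM of C3ar1, depending on the kidney. C3ar1 (ENSMUSG00000040552) lies at chr6:122847138-122856161.

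**Figure D2:**
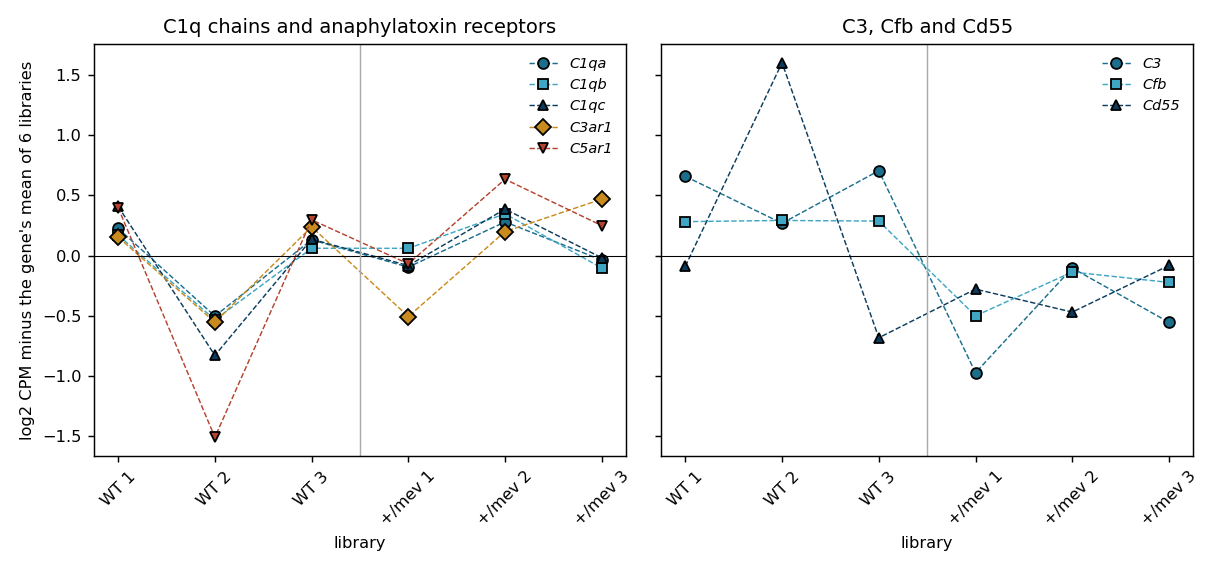
Log2 CPM of each member minus its own mean over the 6 libraries (vertical axis, log2 units; libraries on the horizontal axis, wild-type on the left of each panel). The C1q chains, C3ar1 and C5ar1 all dip in wild-type replicate 2, while Cd55 peaks there and C3 and Cfb are above 0 in each wild-type library and below 0 in each Ptpn6+/mev library.

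Of the 8 members tested, none passed an FDR of 0.05 in edgeR's quasi-likelihood test, which called 0.138% of all genes tested. At an unadjusted p under 0.05 there were 2, C3 and Cfb, both lower in Ptpn6+/mev kidneys, against 12.2% of all genes in either direction and 6.71% in the lower direction. C3 and Cfb were also the 2 members called by DESeq2, which called 2.97% of all genes, by edgeR's exact test, which called 2.99%, and without wild-type replicate 2, where 1.8% of genes were called. limma on log2 FPKM called none of the 8, and 0.169% of all genes with a pseudocount of 1 and 0.146% with 0.1. FPKM values of the groups did not overlap for the same 2 members, against 6.38% of all genes that were lower without overlap in FPKM and 9.8% in normalized log2 CPM. The shares without overlap in the higher or in either direction are not given here. The median log2 fold change was 0.09 over the 8 members, with 5 above 0 and 3 below, and -0.0024 over all 13036 genes. Without wild-type replicate 2 the members divided into 1 above 0, Cd55, and 7 below, with a median of -0.11.

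**Figure D3:**
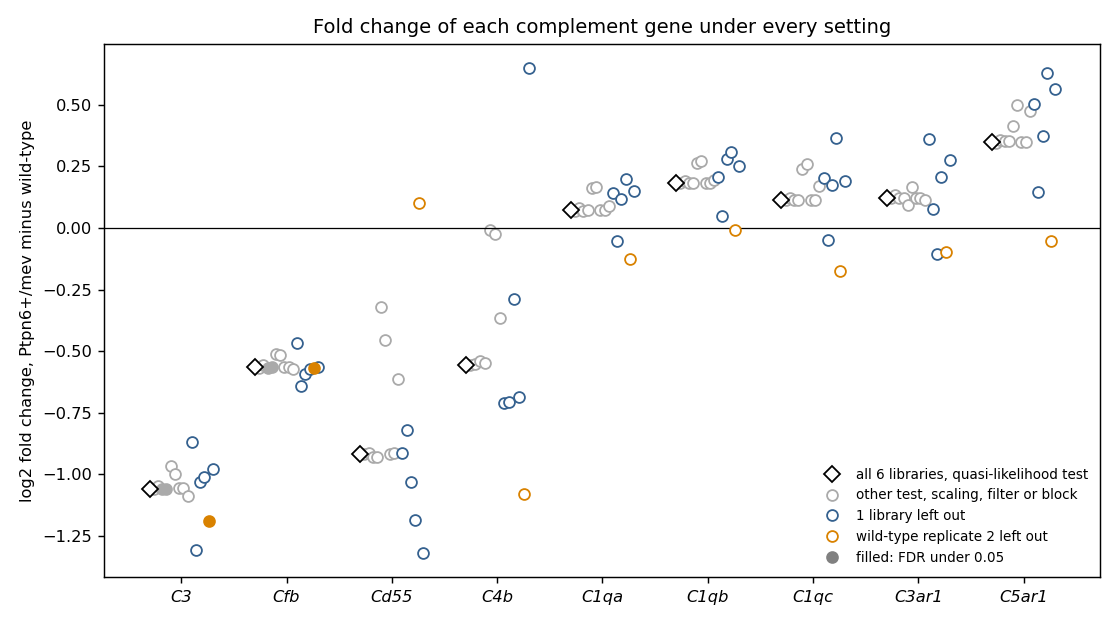
Log2 fold change (Ptpn6+/mev minus wild-type, vertical axis) of each of the 9 members under every test, scaling, filter and left-out library; filled points passed an FDR of 0.05. C3 and Cfb stay below 0 under every setting, whereas the points without wild-type replicate 2 (orange) cross 0 for Cd55, the C1q chains, C3ar1 and C5ar1.

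The rest of the pathway was read from a list of 51 complement genes ordered by role, of which 42 are not members. Of these 42, 40 symbols were in the table and 20 genes were tested; C4a and Cfhr2 were not analysed here, and 5 were listed at 0 in every library. None of the 20 passed an FDR of 0.05 in edgeR's quasi-likelihood test, and 12 had a log2 fold change below 0 and 8 above. Their median was -0.13, beside -0.0024 over all genes. On log2 FPKM it was 0.01 with a pseudocount of 1 and 0.05 with 0.1, where the median over all genes was 0.06 and 0.08. Across the 20, 3 had an unadjusted p under 0.05, Mbl1, C2 and C8g, all lower in Ptpn6+/mev kidneys, against 12.2% of all genes tested in either direction and 6.71% in the lower direction. DESeq2 and edgeR's exact test each called 1 of the 20, Mbl1, against 2.97% and 2.99% of all genes. Without wild-type replicate 2 the median of the 20 was -0.46, with 14 below 0 and 6 above. In that fit 7 of them had an unadjusted p under 0.05, 6 lower and 1 higher, against 17.2% of all genes in either direction, and none passed the FDR.

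Mbl1, a mannose-binding lectin that starts the lectin pathway, was at 0.43, 0.43 and 0.24 FPKM in the Ptpn6+/mev kidneys and at 2.25, 3.54 and 0.67 FPKM in the wild-type kidneys. The groups did not overlap, with wild-type replicate 3 the nearest to the Ptpn6+/mev kidneys. The log2 fold change was -2.61 with a standard error of 0.67 (adjusted p = 0.172, edgeR quasi-likelihood test). It passed in edgeR's exact test (adjusted p = 0.00724), in DESeq2 (adjusted p = 0.0114) and without wild-type replicate 3 (-3.06, adjusted p = 0.0446, edgeR). It missed the threshold without each of the other libraries, at -1.99 without wild-type replicate 2 (adjusted p = 0.131, edgeR) and with adjusted p-values of 0.343 to 0.554 without the remaining 4. C2, the protease that partners C4 and lies beside Cfb on chromosome 17, was at 10.4, 14.3 and 12.0 FPKM against 14.0, 16.7 and 19.1 FPKM. These FPKM ranges met, since Ptpn6+/mev replicate 2 was above wild-type replicate 1. On the CPM scale C2 was at 26.9, 35.0 and 30.8 against 37.4, 45.4 and 48.6, where the groups did not overlap. The log2 fold change of C2 was -0.50 (standard error 0.14, adjusted p = 0.207, edgeR). C8g, a chain of the terminal component C8, was at 2.46, 2.82 and 2.01 FPKM against 3.54, 4.79 and 4.35 FPKM. Its groups did not overlap, with a log2 fold change of -0.88 (standard error 0.25, adjusted p = 0.209, edgeR).

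Among the remaining roles, the soluble regulator Clu was by far the most abundant gene. Clu, or clusterin, a secreted chaperone that also blocks the terminal complex, stood at 2459 ± 152 FPKM in Ptpn6+/mev kidneys and 2229 ± 507 FPKM in wild-type kidneys (SD, n = 3). The membrane regulator Cr1l (Crry), which limits C3 cleavage in rodents, was at 40.9 ± 1.93 and 37.8 ± 2.86 FPKM, and the C1 inhibitor Serping1 at 26.4 ± 1.93 and 28.5 ± 11.8 FPKM. Cr1l was thus far above Cd55 in every kidney. The C1q-associated protease gene C1ra was at 6.36 ± 0.784 and 7.58 ± 2.68 FPKM. Itgb2, the shared chain of the integrin receptors for cleaved C3, was at 11.6 ± 5.27 and 9.24 ± 4.32 FPKM, and properdin (Cfp), which stabilizes the alternative convertase, at 5.04 ± 1.08 and 3.43 ± 1.65 FPKM. None of these genes had an unadjusted p under 0.05 in edgeR's quasi-likelihood test on all 6 libraries. Several depended on which wild-type library was left out. Without wild-type replicate 2 the log2 fold change of C1ra went from -0.31 to -0.56 (adjusted p = 0.0768, edgeR) and that of Serping1 from -0.16 to -0.45 (adjusted p = 0.0597, edgeR), both then under 0.05 before adjustment. Without wild-type replicate 3, by contrast, C1ra was at -0.13 and Serping1 turned to 0.06, and without wild-type replicate 1 they were at -0.22 and -0.05. Cd59a, a membrane inhibitor of the terminal complex, was higher without wild-type replicate 2, at 0.46 against 0.19 with all libraries (adjusted p = 0.0684, edgeR), and was at 0.03 without wild-type replicate 3. In the fit without wild-type replicate 2 Cfp went from 0.49 to 0.16, Cr1l from 0.05 to 0.17, Clu from 0.08 to -0.04 and Itgb2 from 0.33 to -0.05, none of them under 0.05 before adjustment. All 6 complement receptor genes tested, C3ar1, C5ar1, C5ar2, Itgam, Itgax and Itgb2, were lowest in wild-type replicate 2. The same held for 14 of all 28 complement genes tested, these receptors included. How many of all genes tested were lowest in that library was not counted. This count and those of the marker lists therefore stand without a background share.

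**Figure D4:**
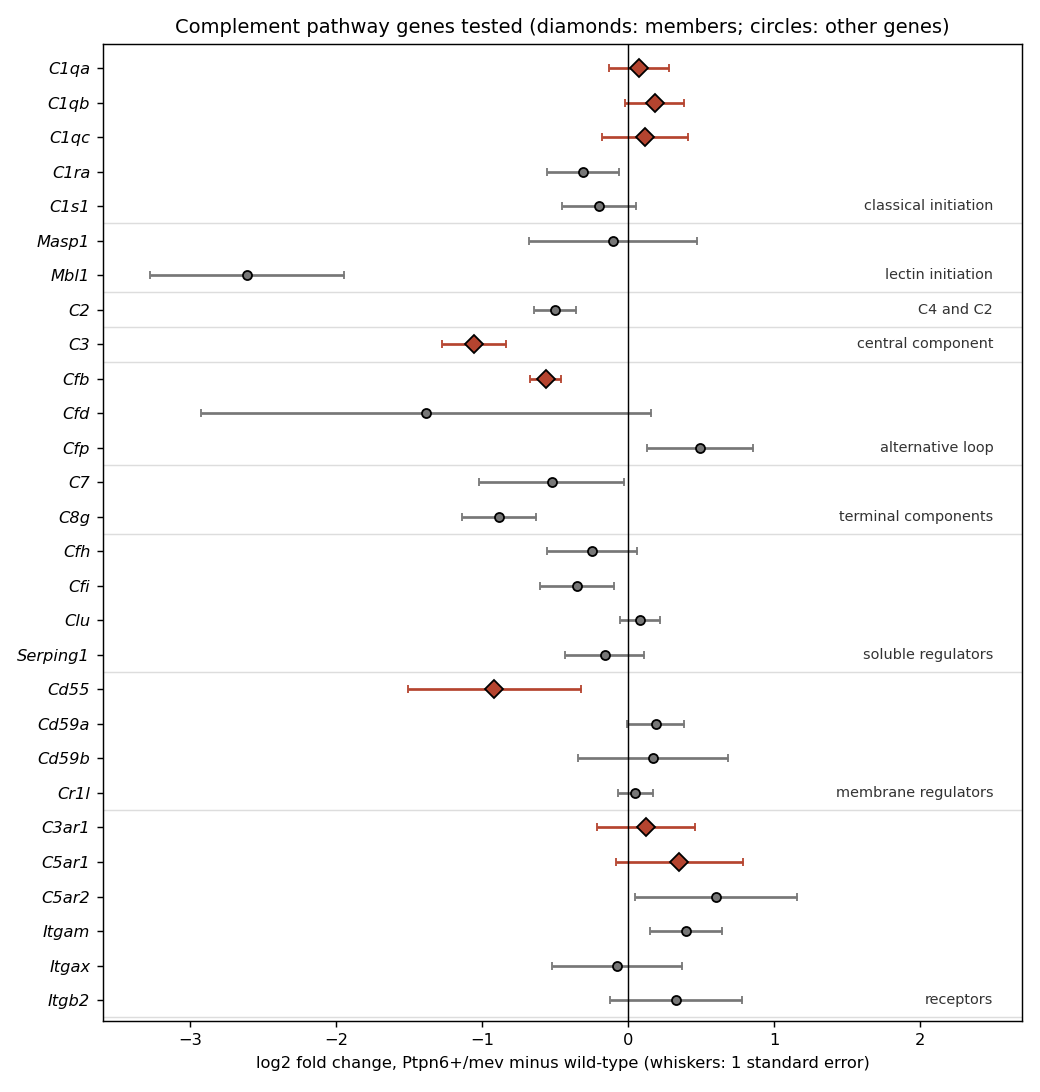
Log2 fold change (Ptpn6+/mev minus wild-type, horizontal axis; whiskers 1 standard error) of the 28 complement genes tested with edgeR, grouped by role; diamonds are the members. C3, Cfb, C2, C8g and Mbl1 lie to the left of 0, the C1q chains and C3ar1 within about 1 standard error of it, and the soluble and membrane regulators on both sides.

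Markers of cell types were read beside these complement genes. The counts of markers at an unadjusted p under 0.05 that follow stand beside 12.2% of all genes tested in either direction and 6.71% in the lower direction. The 7 liver markers, of which 5 were tested, summed to 67.0 to 74.8 FPKM in Ptpn6+/mev kidneys and 82.9 to 107 FPKM in wild-type kidneys, and 4 of the 5 were lower and 3 of them at an unadjusted p under 0.05 (edgeR). Among them Alb was at 1.70 to 2.23 FPKM against 3.68 to 6.29 FPKM (adjusted p = 0.0852, edgeR). The defining liver marker Ahsg, however, was listed at 0 in every library. Apoa1 was at 0 FPKM in each Ptpn6+/mev kidney and at 0.09 to 0.26 FPKM in the wild-type kidneys. Ttr went the other way with overlapping values, at 25.5 to 38.1 FPKM against 19.2 to 30.6 FPKM (log2 fold change 0.31, adjusted p = 0.640, edgeR). The 9 proximal tubule markers summed to 471 to 581 FPKM against 628 to 753 FPKM; 8 had a log2 fold change below 0, 5 at an unadjusted p under 0.05, and Slc22a8 passed the FDR (adjusted p = 0.0443, edgeR). Both sums separated the groups in the direction of C3 and Cfb, but the separation of each sum depended on a single abundant gene. Fgb did so in the liver sum, at 24.1 to 32.4 FPKM against 36.8 to 63.9 FPKM. Slc22a6 did so in the proximal tubule sum, at 70.35 to 99.0 FPKM against 130 to 183 FPKM. Without these genes both sums overlapped between the groups. Other tested genes of the lists were also lower without overlap in FPKM, beside 6.38% of all genes tested. These were Alb and Serpina1a in the liver list and Slc22a8 and Cubn in the proximal tubule list. No gene of either list was higher without overlap. The part of either marker list in the C3 and Cfb values was not tested. The sums of 4 endothelial markers (103 to 110 against 44.6 to 111 FPKM) and 4 fibroblast markers (63.6 to 86.4 against 21.8 to 107 FPKM) overlapped between the groups, and each of these 8 genes was lowest in wild-type replicate 2, as C1q and the receptors were. Neutrophil markers summed to 25.2 to 58.8 against 26.7 to 45.5 FPKM, with 5 of 10 tested and none at an unadjusted p under 0.05, and no B or T cell marker passed the filter on low counts. The summed FPKM also overlapped between the groups for 5 blood markers (589 to 1633 against 502 to 1298) and 7 markers of other nephron segments (2041 to 2945 against 2492 to 2872), the last with Umod at 1628 FPKM or more in every kidney. The 6 injured tubule markers summed to 23868 to 29484 against 26807 to 36577 FPKM, a sum made up mostly of Spp1, and 2 were higher and 1 lower at an unadjusted p under 0.05 (edgeR). Vcam1 was at 13.3, 24.0 and 22.8 FPKM in the Ptpn6+/mev kidneys and at 11.7, 5.91 and 11.4 FPKM in the wild-type kidneys (log2 fold change 1.05, adjusted p = 0.188, edgeR). Havcr1, the tubular injury marker KIM-1, was at 1513, 1565 and 1436 FPKM against 1087, 1259 and 1262 FPKM (0.27, adjusted p = 0.325, edgeR). Neither gene overlapped between the groups, in the direction opposite to C3 and Cfb, while Spp1 was lower in the Ptpn6+/mev kidneys (-0.38, adjusted p = 0.331, edgeR) with overlapping values. The share of all genes that were higher without overlap is not given beside Vcam1 and Havcr1. The part of tubular injury in the C3 and Cfb values was not tested.

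Genes whose pattern was most like each member were found by the root mean square difference of log2 CPM, centred on each gene's mean, over the 6 libraries. For C3 the nearest were C1rl, a C1r-like protease, at 0.155, Tcea3 at 0.169 and Serpinf2, the plasmin inhibitor, at 0.178, and only 22 genes lay within 0.25. C1rl was at 2.61, 5.18 and 3.42 FPKM in the Ptpn6+/mev kidneys and at 6.75, 5.52 and 6.51 FPKM in the wild-type kidneys. For Cfb the nearest were Cebpa at 0.0507, Naprt at 0.0526 and Inmt at 0.0590, with 1571 genes within 0.25. Such counts depend on how far a member itself varied, since its own root mean square deviation was 0.307 for Cfb and 0.615 for C3. The mean of the C1q chains was nearest to Gpr161 at 0.0468, Ccdc134 at 0.0592 and Scfd2 at 0.0667, among 1785 genes within that distance. C5ar1 was nearest to the fibronectin gene Fn1 at 0.0835, Emp3 at 0.102 and B3gnt9 at 0.103, with 114 genes within 0.25, and C3ar1 to Cd276 at 0.0646, Basp1 at 0.0749 and Tlr2 at 0.0755, with 283. Cd55, with its peak in 1 library, had 8 genes within 0.25, led by Akr1c14 at 0.141, Arhgap5 at 0.209 and Ifit1 at 0.237. The libraries behind these distances are the same 6 throughout, so a likeness describes these kidneys alone.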

How the data were processed

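Poly-A mRNA of 6 left kidneys, 3 per genotype, was sequenced with a kit that does not keep strand, and each library came from 1 mouse. Per the submitters' processing notes the reads were aligned to GRCm38.p5 with TopHat2 2.0.3.12, and Bowtie2, Cufflinks and RSEM are also listed. The authors deposited estimated counts per gene and library, which need not be whole (1744 of 21367 genes had a fractional one); the tool that gave them is not given in the sources used here. The authors also deposited FPKM values, used here for levels. How reads shared by near-identical genes were divided is not given in the sources used here, which bears on C4b, Cd55 and Cfb.

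Counts were rounded and tested in edgeR 4.0.16 (R 4.3.3) with TMM normalization, filterByExpr, which kept 13036 genes, and the quasi-likelihood test, with Benjamini-Hochberg adjustment over those genes, which gives the FDR. Standard errors are the log2 fold change divided by the square root of F. Log2 CPM used a prior count of 2. C4b, below the filter, was read from the fit without one. Replicates of a group differed by more than sampling noise. Between 10271590 and 12361745 counts per library limit precision for genes near 0, and floors cover counting error only.

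The 15 alternatives were DESeq2 size factors, upper quartile scaling, DESeq2 1.42.0, edgeR's exact test, limma 3.58.1 on log2(FPKM + 1) and log2(FPKM + 0.1), no filter, a floor of 10 counts per library, a replicate block, and each library left out. The scripts were tested on simulated data. The members and lists were chosen with earlier results of these data known. Named were the members, pathway genes with a mean FPKM of at least 1 in a group that had an unadjusted p under 0.05 or were the most abundant of their role outside the members, marker lists, Ptpn6, and the 3 genes nearest in pattern to each member. Cd59a, Cd14, Cfp, Serping1, Vcam1, Havcr1, Gm20547, the comparison of receptors in wild-type replicate 2, and the adipocyte markers were chosen after the data were seen. Positions are from GENCODE M21 (GRCm38), whose release need not be that of the files. Figures were drawn with Python 3.11.15 and matplotlib 3.10.9.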

Additional observations from a re-analysis of the deposited data

How the results depend on the processing

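C3 and Cfb had log2 fold changes below 0 under all 15 alternatives. They passed the FDR under DESeq2 (-1.06 and -0.57), edgeR's exact test (-1.06 and -0.57) and without wild-type replicate 2, and missed it elsewhere; the cause was not tested. The number of members called was 2 with DESeq2 and 2 with the exact test, against 0 in the quasi-likelihood test, and that of pathway genes 3 and 3 against 0. Over all genes the 18 calls became 387 with DESeq2, 390 with the exact test and 52 without a filter. With the replicate number as a block 1 gene and no member was called (C3 adjusted p = 0.25, Cfb 0.20, edgeR). The correlations of same-numbered libraries' deviations were -0.144, -0.184 and -0.130, and no library correlated best with its own number. With 3 libraries per group these correlations cannot show whether same-numbered mice shared anything beyond the number.

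With 1 library left out at a time, log2 fold changes ranged from -1.31 to -0.87 for C3, -0.64 to -0.47 for Cfb, -1.32 to 0.10 for Cd55, -0.13 to 0.20 for C1qa, -0.0098 to 0.31 for C1qb, -0.18 to 0.37 for C1qc, -0.11 to 0.36 for C3ar1 and -0.055 to 0.63 for C5ar1. The sign turned without wild-type replicate 2 for C1qa (-0.13), C1qb (-0.0098), C1qc (-0.18), C3ar1 (-0.096), C5ar1 (-0.055) and Cd55 (0.10), without Ptpn6+/mev replicate 2 for C1qa (-0.054) and C1qc (-0.048), and without Ptpn6+/mev replicate 3 for C3ar1 (-0.11). The fitted C4b value, from 13 counts, ranged from -1.08 to 0.65, the latter without wild-type replicate 3. Calls ranged from 0 to 2 among members, 0 to 2 in the pathway and 1 to 237 over all genes, the last without wild-type replicate 2. Depth limits C4b, Cd55 at 20 to 87 counts per library, and C3ar1 at 29 to 66 counts per library.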

Other observations

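Cfd, which encodes adipsin or factor D, the protease that activates factor B and is known to be made by fat cells, divided the kidneys across the genotypes. It was at 50.98, 0 and 0.32 FPKM in the Ptpn6+/mev kidneys and at 71.6, 1.11 and 57.0 FPKM in the wild-type kidneys, in the order of their replicates, so that 3 libraries held far more of it than the other 3, and the log2 fold change of -1.39 had a standard error of 1.54 (adjusted p = 0.792, edgeR quasi-likelihood test). Without Ptpn6+/mev replicate 1, which leaves that group at 0 and 0.32 FPKM, the fitted value was -8.02 (adjusted p = 0.356, edgeR), and without the other libraries in turn it lay between -1.96 and -0.80. Of 6 adipocyte markers, chosen after Cfd was seen, all but Cidec were highest in the same 3 libraries. The gap was wide for Adipoq, Plin1 and Retn, and smaller for Lep and Fabp4. Adipoq was at 5.19, 0 and 0 FPKM in Ptpn6+/mev kidneys and 4.36, 0.07 and 7.30 FPKM in wild-type kidneys. Plin1 was at 2.62, 0 and 0 FPKM against 3.21, 0.14 and 2.30 FPKM, and Retn at 3.44, 0 and 0 FPKM against 4.97, 0 and 4.06 FPKM. The division was not shared by Cidec. Cidec was at 9.39, 1.07 and 0.54 FPKM against 10.8, 10.4 and 7.98 FPKM, so it was high in wild-type replicate 2, where Cfd was low. Lep was at 0.71, 0.36 and 0.06 FPKM against 0.54, 0 and 0.52 FPKM. Fabp4, which endothelium also expresses, was at 176, 84.2 and 105 FPKM against 166, 46.0 and 137 FPKM. The 6 markers summed to 197, 85.6 and 105 FPKM against 190, 56.6 and 159 FPKM, a sum made up mostly of Fabp4. Of the 6, 5 were tested and none had an unadjusted p under 0.05 (edgeR). The part of fat tissue in the Cfd values was not tested. C3 and Cfb did not follow this division, since wild-type replicate 2, the wild-type library low in Cfd, held more of both genes than any Ptpn6+/mev library.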
